A study of Mus musculus with 17 samples.

Results

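The promoters and neighbourhoods of 10 genes of the AP-1 and immediate early group were examined in the open chromatin of mouse kidney. They are Fos, Fosb, Fosl2, Jun, Junb, Jund, Atf3, Egr1, Ier2 and Klf6, out of 21938 protein-coding genes of the annotation. They were taken by name, and each was followed from 10 kb upstream of its start to its end. The assay was ATAC-seq, in which a transposase cuts DNA that is not packed away, applied to 20000 cells per mouse. The Ctrl group held 5 wild-type C57BL/6 mice given saline. The Case group held 6 diabetic db/db mice (BKS.Cg-Dock7m +/+ Leprdb/J, a leptin receptor mutant) given saline. The Dapa group held 6 db/db mice of that strain that received 1 mg/kg/day of dapagliflozin, which blocks the kidney glucose transporter SGLT2. All mice were male, were 8 weeks old at the start and were treated by gavage for 6 weeks. Ctrl mice and db/db mice differ in genotype, in diabetes and in background strain at once, and these cannot be told apart. Each library was a list of summits, the positions where the signal of a called peak was highest, each with a score on the −log10 scale. Lists were cut to the 29702 strongest summits, the length of the shortest, and a summit was given its rank percentile in its list, with 100 for the strongest. The promoter percentile of a gene is that of its best summit within 1 kb of a transcription start, and 0 where there was none.

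Immediate early genes are switched on within minutes of a growth factor, stress or injury signal, without new protein synthesis. Fos and Jun family proteins carry a basic leucine zipper and bind DNA as pairs called AP-1. Jun proteins can pair with each other, whereas Fos proteins need a Jun partner. Kinase cascades reach these genes through the serum response factor, which binds the CArG box together with its Elk partners, and through CREB and ATF proteins, which bind the cyclic AMP element (CRE). In the kidney the group is known for its fast induction in tubular cells after ischaemic or toxic injury.

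The sequences that follow were read from the mm10 build (GRCm38.p6, RefSeq genome) in the gene's own direction, since these elements lie at or beside the regions found open in the mice. The genome read matched the RefSeq promoter table in all 8 members that it holds. Capitals mark the CArG box, the CRE (TGACGTCA), the AP-1 site (TGACTCA), the variant of Jun and Klf6 (TGACATCA) and the EGR site (GCGNGGGCG). Both strands were searched, and no 2 marked matches overlap. The CArG box, the EGR site and the variant were added to the search after the regions had been seen. The stretches lie at chr12:85473541-85473630 (Fos), chr7:19310268-19310467 (Fosb), chr4:95052223-95052307 (Jun), chr8:84980119-84980208 and chr8:84976584-84976673 (Junb upstream and at its inner start), chr8:70698695-70698922 (Jund), chr8:84662853-84662937 (Ier2), chr13:5861330-5861417 (Klf6) and chr1:191224403-191224489 (Atf3 upstream). Fos, Jund and Klf6 are on the plus strand and the others on the minus strand. None holds a coding or UTR base, and the Atf3 stretch overlaps an exon of the long noncoding RNA gene D730003I15Rik.
Fos, CArG box: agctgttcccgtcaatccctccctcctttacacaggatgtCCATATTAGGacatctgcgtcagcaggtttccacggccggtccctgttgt
Fosb, EGR site and CArG box: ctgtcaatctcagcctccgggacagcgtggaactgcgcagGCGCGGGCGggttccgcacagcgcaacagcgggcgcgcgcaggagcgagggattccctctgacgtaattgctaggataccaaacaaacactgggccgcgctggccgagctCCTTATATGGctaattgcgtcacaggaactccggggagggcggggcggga
Junb upstream, CArG box: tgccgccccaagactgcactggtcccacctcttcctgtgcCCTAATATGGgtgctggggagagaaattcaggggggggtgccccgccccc
Junb inner start, CArG box: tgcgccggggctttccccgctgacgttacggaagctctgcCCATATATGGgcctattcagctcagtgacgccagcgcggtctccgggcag
Jund, CRE and EGR sites: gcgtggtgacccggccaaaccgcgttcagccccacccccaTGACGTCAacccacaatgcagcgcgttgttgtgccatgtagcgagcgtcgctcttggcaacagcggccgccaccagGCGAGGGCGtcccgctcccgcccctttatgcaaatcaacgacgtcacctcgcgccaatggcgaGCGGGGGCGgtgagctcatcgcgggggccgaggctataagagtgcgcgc
Ier2, CRE: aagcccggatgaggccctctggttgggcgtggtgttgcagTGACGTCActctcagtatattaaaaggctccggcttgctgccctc
Jun, AP-1 variant: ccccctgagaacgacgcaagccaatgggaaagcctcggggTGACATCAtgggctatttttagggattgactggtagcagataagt
Klf6, AP-1 variant: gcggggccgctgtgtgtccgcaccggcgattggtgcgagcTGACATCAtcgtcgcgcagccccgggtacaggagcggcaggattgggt
Atf3 upstream, AP-1 site: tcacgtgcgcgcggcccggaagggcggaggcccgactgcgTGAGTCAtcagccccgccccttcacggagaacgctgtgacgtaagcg

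Complete lists held 29702 to 56659 summits per mouse, and the number of sequenced reads was not analysed here, so that depth is unknown and no counting interval can be given. A kidney origin was checked with 14 epithelium markers. Between 6 and 10 of them had a promoter summit in each library, and Slc12a1 and Aqp2 were among those with none in any. Of 5 endothelium markers 0 or 1 had one, of 4 fibroblast markers 0 to 2, and of 8 leukocyte markers 0 to 2. In tissue of mixed cells, a higher percentile from more cells of a type and one from more open chromatin per cell cannot be told apart.

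All 10 genes had open chromatin at or near a start in every mouse. Their windows held 390 summits in the complete lists and 339 in the equal-length lists. Of the latter, 326 fell into 30 regions found in at least 2 libraries, each made of summits extended by 250 bp to both sides and merged. Exactly 1 region per gene was found in all 17 libraries. This is 33.3% of the 30 regions, beside 15.0% of all 52371 regions of the series. The 2 sets are not alike, since the windows were built around genes. Of the 30 regions, 14 lie within 1 kb of a start of the member, beside 16870 of the 52371 within 1 kb of any start. At 8 genes that region lay within 1 kb of a start. At Junb its median summit lay 1524 bp upstream of the annotated start, and at Ier2 1263 bp upstream. A promoter summit in all 17 libraries was present at 8 of 10 members, beside 52.6% of 13165 protein-coding genes that had one in at least 2 libraries. The exceptions in the equal-length lists were Junb in Dapa 9 and Ier2 in Ctrl 2 and Case 4. The complete list of Ctrl 2 held an Ier2 summit 21 bp upstream of the start (percentile 36.7), which the cut removed.

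**Figure D1:**
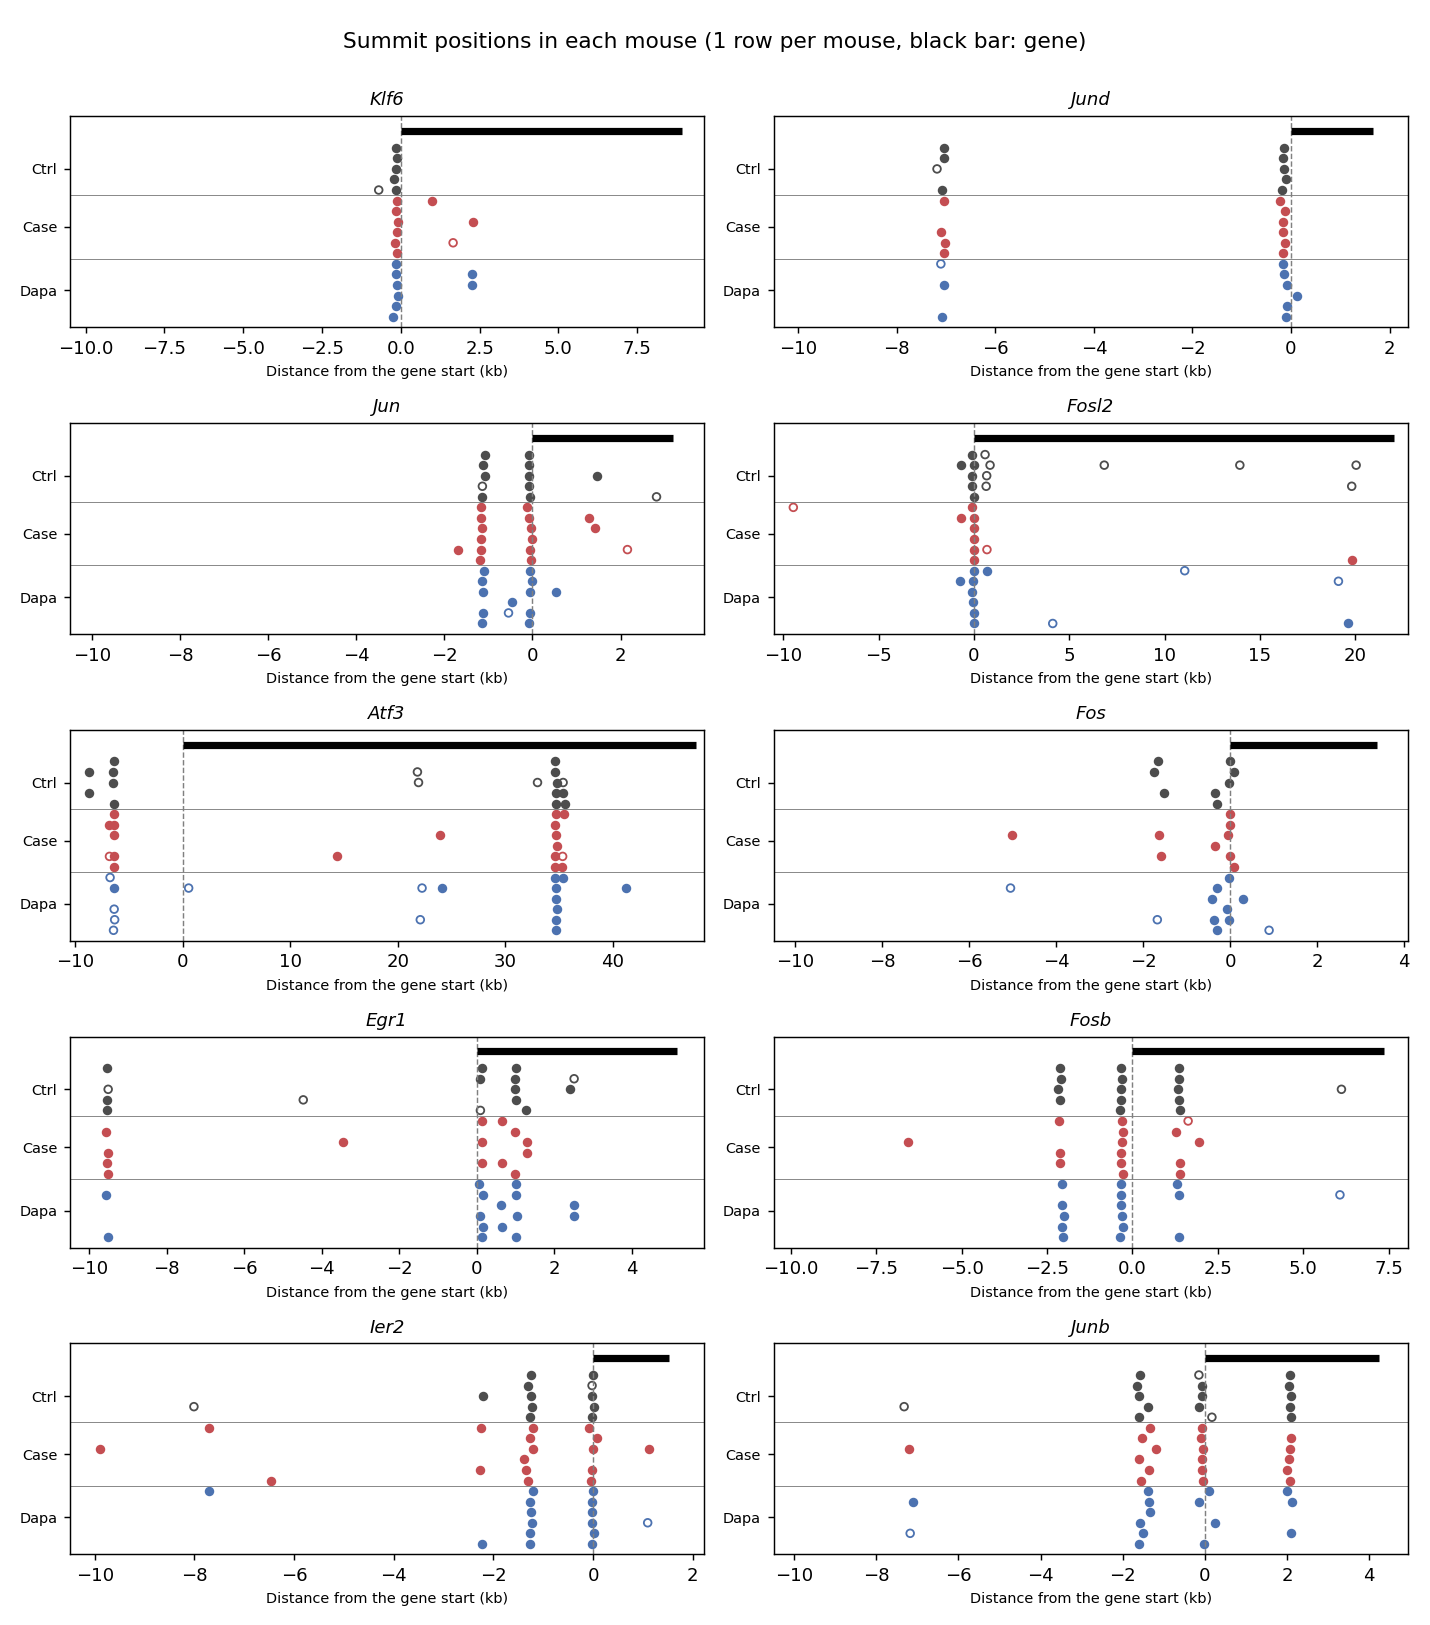
Summits from 10 kb upstream of each gene to its end, with the distance from the gene start in kb on the horizontal axis and 1 row per mouse, grouped as Ctrl, Case and Dapa from top to bottom. Filled points are summits among the 29702 strongest of a library, open points the weaker ones and the black bar the gene, and at every gene 1 place near a start holds points of all 17 mice.

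The genes differed in how high their best promoter summit ranked. Klf6, a zinc finger factor induced early after tissue injury, stood first with a mean percentile of 97.4 ± 2.75 (SD, n = 17), and 98.0% of the 13165 genes had a lower mean. It was followed by Jund (86.2 ± 9.17), Jun (85.2 ± 9.84), Fosl2 (80.2 ± 11.0), Atf3 (78.4 ± 11.4), Fos (75.1 ± 12.3), Egr1 (74.3 ± 9.92) and Fosb (73.3 ± 13.2). The last places were taken by Ier2 (47.8 ± 24.3) and Junb (47.8 ± 22.0). Their all-library regions lie over 1 kb upstream, outside the promoter limit, and had mean percentiles of 77.3 (Ier2) and 72.9 (Junb). Only the step from Klf6 to Jund held in every mouse, with a difference of 11.2 ± 8.72 in 17 of 17. Fosb was above Ier2 in 14 of 17 mice, and the other 7 neighbouring pairs kept their order in 7 to 11 of 17, with mean differences smaller than their SD. The median of the 10 means was 76.7, beside 64.8 over the 13165 genes and 83.3 over those with a promoter summit in all libraries.

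**Figure D2:**
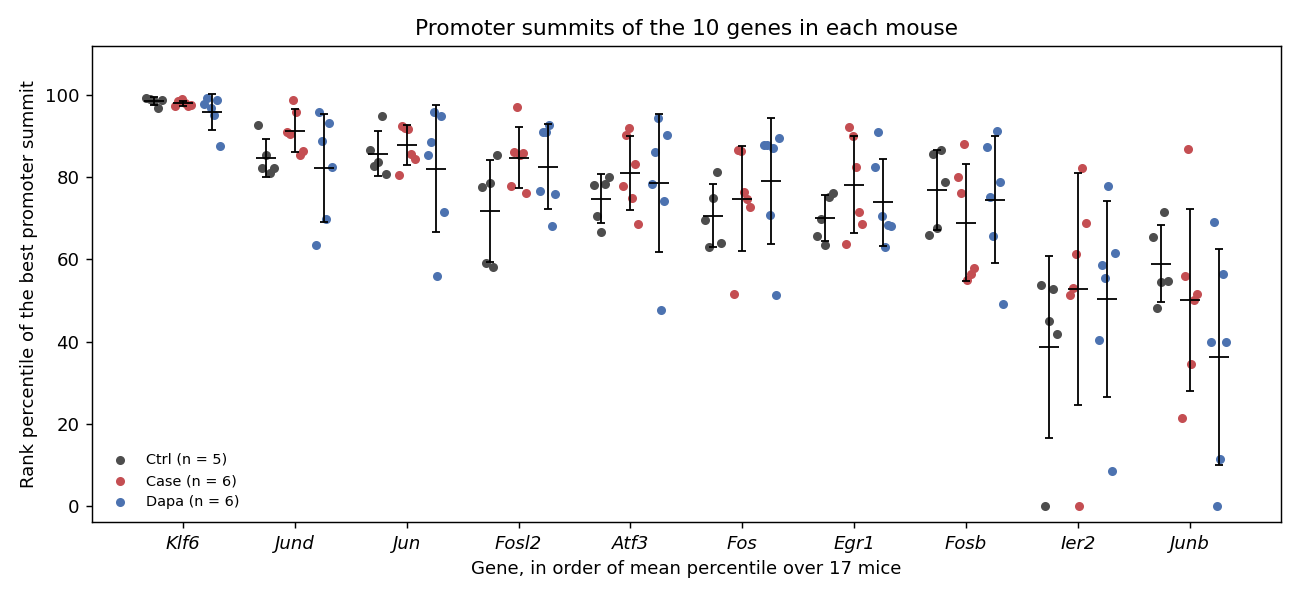
Rank percentile of the best promoter summit (vertical axis, 0 to 100) of the 10 genes in each of 17 mice, 1 point per mouse, with the mean and SD of each group in black. The groups overlap at every gene, Klf6 is above 87 in all mice, and zeros occur only for Ier2 (Ctrl 2, Case 4) and Junb (Dapa 9).

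Fos encodes the founding Fos protein and is the classic gene with a CArG box. Its gene lies at chr12:85473890-85477273. Ctrl mice 1 to 5 had promoter percentiles of 69.7, 63.1, 75.1, 81.4 and 63.9. The Case values were 51.6 at the lowest, 75.5 at the median and 86.7 at the highest, and the Dapa values 51.2, 87.5 and 89.5. The groups overlapped, although 4 of 6 Dapa mice were above the highest Ctrl mouse. The difference was 8.43 between Dapa and Ctrl (exact permutation p = 0.266, adjusted over all genes 0.635) and 4.09 between Case and Ctrl (exact permutation p = 0.563, adjusted 0.856). The latter was 8.71 without Case 1, 1.70 without Case 2 and −0.306 with complete lists, and the former 14.0 without Dapa 11 and 3.59 with complete lists.

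The summits of the Fos promoter region fell at 2 places. In Ctrl 4, Ctrl 5, Case 4, Dapa 8, Dapa 9, Dapa 11 and Dapa 12 a summit lay 303 to 411 bp upstream of the start, beside the CArG box 309 bp upstream shown above, and in the other mice the summits lay between 62 bp upstream and 95 bp downstream. Dapa 9 and Dapa 11 had a summit at both the upstream place and a second one, at 288 bp downstream and 16 bp upstream. A summit within 50 bp of the box was found in 4 of 17 mice, 1 in Ctrl, 1 in Case and 2 in Dapa. These counts were made after the positions had been seen and have no test.

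A weaker Fos region lay 1654 bp upstream (chr12:85471892-85472623, intergenic). It was open in Ctrl 1 (percentile 13.2), Ctrl 2 (24.3) and Ctrl 4 (23.1), and in Case 3 (59.8) and Case 5 (23.4). No Dapa mouse had it in the equal-length list, and Dapa 11 had it in the complete list. The count of 0 of 6 in Dapa against 3 of 5 in Ctrl gave p = 0.0606 (Fisher's exact test), and too few libraries held the region for an unadjusted p under 0.05.

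Fosb, a Fos family member of which a truncated form gathers on repeated stimulation, lies at chr7:19302696-19310051. Its all-library region was narrow, with median summits 322 bp upstream and a range of 87 bp over the 17 mice. The CArG box lay 60.5 bp from that median, and the EGR site 50.0 bp on the other side. Ctrl mice had promoter percentiles of 66.0, 85.8, 67.6, 86.7 and 78.8. In Case they ran from 55.0 through a median of 67.0 to 88.1, and in Dapa from 49.0 through 77.0 to 91.3. The difference between Case and Ctrl was −7.99 (exact permutation p = 0.303, adjusted 0.711), and −5.20 without Case 4. A second region inside the gene, 1373 bp downstream of the start, was open in 5 of 5 Ctrl mice, 3 of 6 Case mice and 3 of 6 Dapa mice (Fisher's exact p = 0.182 for Case against Ctrl). One more region, 2099 bp upstream, was open in 4 of 5, 3 of 6 and 5 of 6.

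Fosl2 encodes FRA-2, a Fos protein that lacks the strong activating part of Fos. It lies at chr5:32135801-32157842. Its all-library region had median summits 18 bp upstream of the start and holds an AP-1 site 53 bp downstream, inside the transcribed part. Ctrl mice had promoter percentiles of 77.6, 59.2, 78.5, 58.2 and 85.4. Case mice ranged from 76.1 through 85.7 to 97.0, and Dapa mice from 68.1 through 83.9 to 92.8. The lowest values were those of Ctrl 2 and Ctrl 4, and 3 of 6 Case and 3 of 6 Dapa mice were above every Ctrl mouse. Case exceeded Ctrl by 13.0 (exact permutation p = 0.0844, adjusted 0.451) and Dapa exceeded Ctrl by 10.9 (exact permutation p = 0.156, adjusted 0.530), neither past the threshold. With complete lists these differences were 6.11 and 5.65.

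Jun, the central partner in AP-1, lies at chr4:95049034-95052222. Its all-library region had median summits 63 bp upstream, with the variant site 21.5 bp away. Ctrl mice had promoter percentiles of 86.7, 82.7, 83.8, 94.9 and 80.7. Case mice ranged from 80.6 through 88.8 to 92.6. Dapa mice ranged from 56.0 through 87.1 to 95.8, and Dapa 10 (56.0) and Dapa 12 (71.5) were below every mouse of the other groups. Dapa was lower than Case by a difference of −5.83 (exact permutation p = 0.444, adjusted 1), and of −0.609 without Dapa 10.

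A second Jun region, 1139 bp upstream (chr4:95053042-95053659), lies 121 bp from a start of the antisense gene Junos, in an exon of it. It was open in 4 of 5 Ctrl mice, 6 of 6 Case mice and 5 of 6 Dapa mice, with no summit in Ctrl 4 and Dapa 10 among the strongest. The percentile of this region (mean ± SD) was 40.7 ± 24.5 for Ctrl mice, 70.7 ± 15.3 for Case mice and 49.1 ± 33.1 for Dapa mice. Summits have no strand, so this region cannot be assigned to Jun or to Junos alone.

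Junb, a Jun protein that often restrains Jun, lies at chr8:84974484-84978718. Its annotation has 2 starts, and 3 regions were found near them. The region open in all mice was 1524 bp upstream (chr8:84979660-84980633), with percentiles of 77.1 ± 5.18 in Ctrl, 70.6 ± 26.4 in Case and 71.6 ± 23.5 in Dapa; its low values were those of Case 5 (22.8) and Dapa 7 (29.9). The region at the inner start (median summit 103 bp before it) was open in 5 of 5 Ctrl mice, 5 of 6 Case mice and 3 of 6 Dapa mice. The region at the outer start was open in 3 of 5, 6 of 6 and 4 of 6. Both the upstream region and the inner one hold a CArG box, shown above. The promoter percentiles in Ctrl were 65.5, 48.2, 54.5, 71.5 and 54.9. In Case they ran from 21.4 through 50.7 to 86.9, and in Dapa from 0 through 39.9 to 69.1, and 4 of 6 Dapa mice were below every Ctrl mouse. Dapa was lower than Ctrl by a difference of −22.7 (exact permutation p = 0.0974, adjusted 0.442). This difference was −3.83 with promoters of 3 kb, which take in the upstream region (exact permutation p = 0.723), and −9.97 with the 14851 strongest summits of each list (exact permutation p = 0.297).

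Jund, the Jun protein that is most steadily expressed in resting cells, lies at chr8:70698949-70700616. Its all-library region had median summits 140 bp upstream, 70.5 bp from a CRE and 6 bp from an EGR site. Ctrl mice had promoter percentiles of 92.6, 82.3, 85.5, 81.0 and 82.2. The 6 Case mice had 91.0, 90.5, 98.9, 96.0, 85.5 and 86.3. Dapa mice had 63.4, 96.0, 88.9, 69.9, 93.2 and 82.5. Case exceeded Ctrl by 6.63 (exact permutation p = 0.0606, adjusted 0.397), and 2 of 6 Case values were above all Ctrl values. With complete lists the difference was 3.60 (exact permutation p = 0.143). Dapa was lower than Case by a difference of −9.04 (exact permutation p = 0.160, adjusted 1), and of −5.27 without Dapa 7. The values of 3 of 6 Dapa mice were below every Case mouse.

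Atf3, a stress-induced partner of Jun that mostly represses, lies at chr1:191170296-191218039. Its all-library region was not at the outermost start but 34702 bp into the annotated gene (chr1:191182228-191183703), where the median summit was 3 bp from an inner start. Ctrl mice had promoter percentiles of 78.2, 70.7, 66.6, 78.4 and 80.2. Case mice ranged from 68.6 through 80.5 to 91.9 and Dapa mice from 47.8 through 82.2 to 94.4. The difference between Case and Ctrl was 6.29 (exact permutation p = 0.225, adjusted 0.635), 4.13 without Case 3 and 1.14 with complete lists.

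The upstream Atf3 region, 6412 bp before the outermost start (chr1:191224177-191225155), was found in fewer Dapa mice than Ctrl or Case mice in the equal-length lists. Its AP-1 site lies 5 bp from the median summit, and D730003I15Rik starts 3 bp from that summit. Ctrl percentiles were 32.7, 4.58, 35.3, 0 and 51.6. The summit of Ctrl 2 had a tied score at the cut of its list, where file order decided which summits were kept. The Case values were 61.7, 48.1, 87.7, 0, 26.8 and 54.6. In Dapa only Dapa 8 had the region, at 72.5. Thus 4 of 5 Ctrl mice, 5 of 6 Case mice and 1 of 6 Dapa mice had it (Fisher's exact p = 0.0801 for Dapa against Case, adjusted over all regions 1, and p = 0.0801 for Dapa against Ctrl, adjusted 0.400). In the complete lists 5 of 6 Dapa mice had it, with percentiles of 30.9, 82.8, 5.89, 8.59 and 12.8, beside 4 of 5 in Ctrl and 5 of 6 in Case. Of the Dapa mice without it among the strongest summits, only Dapa 9 had none in the complete list.

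Egr1, a zinc finger factor induced by growth factor and injury signals and a textbook target of the serum response factor, had an all-library region of 1738 bp that spans both of its annotated starts. The gene lies at chr18:34859823-34864984. The median summit of that region lay 994 bp downstream of the outer start and 390 bp upstream of the inner one. Its summits fell at 4 places, all between these starts. A summit between 981 and 1031 bp downstream of the outer start was found in Ctrl 1, Ctrl 2, Ctrl 3, Ctrl 4, Case 2, Case 6, Dapa 7, Dapa 8, Dapa 10 and Dapa 12. At that place 3 CArG boxes lie between 977 and 1031 bp. In Ctrl 5, Case 3 and Case 4 the summit lay between 1266 and 1301 bp, beside a further pair of CArG boxes at 1279 and 1301 bp. The remaining mice (Case 1, Case 5, Dapa 9 and Dapa 11) had summits between 637 and 660 bp, and 10 mice had one between 64 and 165 bp. A summit within 50 bp of a CArG box was found in 13 of 17 mice: 5 of 5 in Ctrl, 4 of 6 in Case and 4 of 6 in Dapa. Promoter percentiles in Ctrl were 65.6, 69.8, 63.5, 75.2 and 76.2. In Case they ran from 63.8 through 77.1 to 92.3 and in Dapa from 63.1 through 69.5 to 91.0. Case exceeded Ctrl by 8.15 (exact permutation p = 0.193, adjusted 0.600) and by 5.33 without Case 2. With promoters of 500 bp in place of 1 kb the difference turned to −3.57, and with complete lists it was 3.06.

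Ier2, a short-lived nuclear protein of the immediate early set, lies at chr8:84661331-84662852. The region at its start has a CRE 21.5 bp from the median summit. In the equal-length lists it was open in 4 of 5 Ctrl mice, 5 of 6 Case mice and 6 of 6 Dapa mice. In the complete lists the counts were 5 of 5, 5 of 6 and 6 of 6, with Ctrl 2 at a percentile of 36.7. Ctrl promoter percentiles were 53.8, 0, 45.1, 52.9 and 41.8. Case mice ranged from 0 through 57.2 to 82.3 and Dapa mice from 8.42 through 57.1 to 77.9. Case exceeded Ctrl by 14.1 with SDs of 28.3 and 22.2 (exact permutation p = 0.383, adjusted 0.769), and the difference was 4.45 without Ctrl 2, 24.7 without Case 4 and −0.0739 with complete lists. The region 1263 bp upstream (chr8:84663803-84664485) was steadier, at 79.0 ± 5.17 in Ctrl, 74.1 ± 10.4 in Case and 79.1 ± 12.3 in Dapa.

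Klf6 lies at chr13:5861482-5870394, and its all-library region had median summits 153 bp upstream, 44.5 bp from the variant site. Ctrl promoter percentiles were 99.2, 99.1, 98.6, 96.8 and 98.9. Case mice ranged from 97.3 through 97.9 to 99.1 and Dapa mice from 87.7 through 97.3 to 99.2, with Dapa 12 the lowest of all. Dapa was lower than Case by a difference of −2.10 (exact permutation p = 0.297, adjusted 1), and of −0.449 without Dapa 12. An intronic region 2255 bp downstream, with an AP-1 site and a CArG box, was open in 0 of 5 Ctrl mice, 1 of 6 Case mice and 2 of 6 Dapa mice.

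Counted over regions, CArG boxes were searched within 100 bp of the median summit (201 bases in all). Of the member regions, 14 lie within 1 kb of a start of the member itself and 16 farther away. Regions of the series were instead split by their distance from a start of any gene, so the classes are not alike. CArG boxes were found in 4 of the 14, beside 0.723% of 16870 regions of the series near a start. They were found in 1 of the 16, beside 0.828% of 35501 farther away. The 4 were the Fosb region, the inner Junb region, the Egr1 region and the Klf6 intronic region. The CArG boxes of Fos and of the upstream Junb region are not among them, since the former lies 286.5 bp from the median summit and the latter belongs to a region over 1 kb from a start. The CRE was found in 2 of 14 (Jund and Ier2), beside 2.35% of the series, the AP-1 site in 2 of 14 (Fosl2 and Klf6), beside 3.09%, the EGR site in 2 of 14 (Fosb and Jund), beside 7.55%, and the variant in 2 of 14 (Jun and Klf6), beside 1.05%. The HNF1 site of kidney epithelium, searched on both strands, was in 0 of 14 and 0 of 16, beside 0% of the series near a start and 0.0479% farther away. Of the 16 regions farther away, 1 held the AP-1 site (upstream of Atf3), beside 5.69%, and 1 the variant (upstream of Fos), beside 1.07%. The Atf3 region lies 3 bp from a start of D730003I15Rik. By the series rule it is near a start, where the share with the AP-1 site was 3.09%. Some Jun and Ier2 regions counted as farther away also lie within 1 kb of a start of another gene. These are counts of letters in a window, not of bound factors.

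The comparison of Case with Ctrl asked whether the openness of these promoters differed between db/db and wild-type kidneys. None of the 10 genes passed an adjusted p under 0.05, as 0% of the 12677 genes tested did, and 0 of 10 had an unadjusted p under 0.05, where 12.7% of all genes did (exact permutation test, 2-sided, Benjamini-Hochberg adjustment over all genes tested, smallest adjusted p 0.249). The members were higher in Case at 7 genes and lower at 3, with a median difference of 5.19 percentile points, beside a median of −2.51 over all genes, of which 36.0% were higher and 64.0% lower. The 3 lower genes were Fosb, Junb and Klf6. With complete lists 5 members were higher and 5 lower, with a median of −0.0267 beside −5.86 over all genes. The members' median was 2.95 without Case 3, which had leukocyte marker summits and the lowest epithelium marker sum, 3.08 without Case 2 and 3.33 without Ctrl 2. The number of summits in the window also passed at 0 of 10 members, where 4.75% of 16266 genes had an unadjusted p under 0.05. It was higher at 8 members and lower at 2, with a median difference of 0.133 summits. Over all genes 40.8% were higher and 48.2% lower, with a median of 0. Summed over the 10 windows, the mean was 19.6 ± 1.14 summits in Ctrl and 21.5 ± 3.73 in Case. With complete lists, which differ in length, the direction turned, at 24.8 ± 2.77 in Ctrl and 22.7 ± 4.76 in Case.

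The comparison of Dapa with Case asked what the drug changed in db/db kidneys. Again 0 of 10 promoters had an unadjusted p under 0.05, where 3.77% of 12654 genes did, and 0% passed after adjustment. The members were lower in Dapa at 8 genes, with Fos (4.34) and Fosb (5.60) higher, and their median difference was −2.52, beside 0.122 over all genes, of which 50.8% were higher and 49.2% lower. The members' median was −1.44 with complete lists, −1.30 without Case 3 and −4.48 without Case 6. The number of window summits had an unadjusted p under 0.05 at 0 of 10, where 0.783% of 16595 genes did. In Dapa against Ctrl, 0 of 10 promoters had an unadjusted p under 0.05, where 13.8% of 12565 genes did, and 5 members were higher and 5 lower, with a median difference of 0.654 beside −2.38 over all genes, of which 37.0% were higher and 63.0% lower. With complete lists 3 members were higher and 7 lower, with a median of −1.48 beside −3.94 over all genes. The members' median was also below 0 without Ctrl 3 (−0.289), Dapa 8 (−0.999) or Dapa 9 (−0.0520), and with promoters of 500 bp (−2.40), and it reached 3.80 without Dapa 10. The window summits had 0 of 10, where 4.03% of 16043 genes did. The 3 comparisons share their groups, so that their directions are not independent. None of the 30 promoter differences was called, and 26 of them moved by over 1.5 times or turned when 1 mouse was left out. With 5 against 6 and 6 against 6 mice the smallest p an exact permutation test allows is 0.00216.

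Presence of the regions gave no call either. Of the 30 regions, 4 per comparison held enough libraries for an unadjusted p under 0.05, and 0 of 30 reached it in any comparison (Fisher's exact test). Over all regions tested, 10.2% of 11404 had an unadjusted p under 0.05 in Case against Ctrl, 1.18% of 7224 in Dapa against Case and 7.91% of 10867 in Dapa against Ctrl, and 0% passed after adjustment. The smallest p of a member region was 0.182 in Case against Ctrl, 0.0801 in Dapa against Case and 0.0606 in Dapa against Ctrl. The last of these belongs to the upstream Fos region and the one before it to the upstream Atf3 region.

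**Figure D3:**
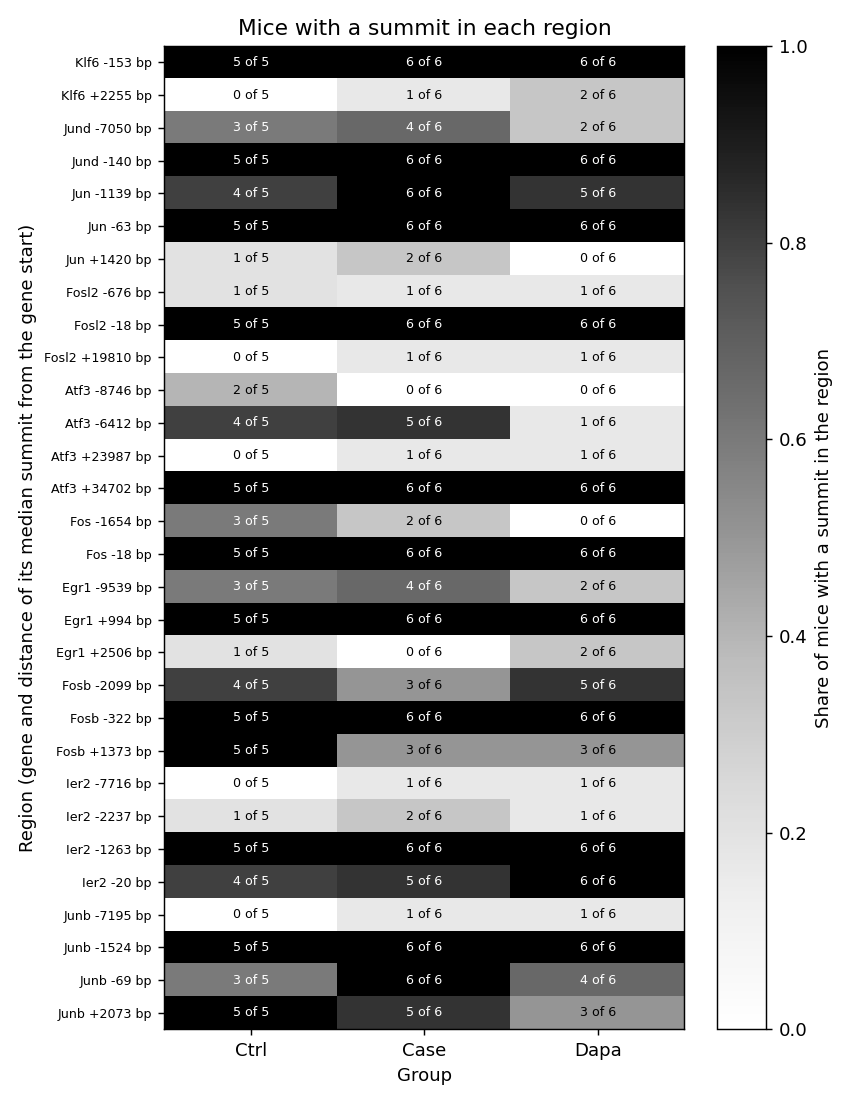
Number of mice with a summit in each of the 30 regions, by group (columns), with darker cells for a larger share of mice and rows named by gene and distance of the median summit from the gene start in bp. The 10 regions open in all 17 mice are black throughout, and the upstream Atf3 region stands at 4 of 5, 5 of 6 and 1 of 6.

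Other genes of the pathway were followed in 3 lists, at their promoters. Of 10 further AP-1 and leucine zipper partners 5 to 8 had a promoter summit per library, of 24 other immediate early genes 19 to 22, and of 14 upstream kinases and factors 11 to 13. None passed an adjusted p under 0.05. In Case against Ctrl an unadjusted p under 0.05 was met by 1 higher partner of 7 tested and by 1 higher and 2 lower immediate early genes of 22 tested, with list medians of 6.97 and −1.69, and by 0 of 12 upstream kinases and factors tested, with a median of −2.48. Over all genes the share was 12.7%. Mafg, a small Maf protein that pairs with other zipper factors, stood at 71.7 ± 14.7 in Case and 43.2 ± 17.8 in Ctrl (exact permutation p = 0.0260, adjusted 0.318). Dusp1, a phosphatase that switches kinases off, stood at 82.3 ± 8.77 and 69.1 ± 8.12 (exact permutation p = 0.0346, adjusted 0.346). Nr4a2, an orphan nuclear receptor, had a promoter summit in 2 of 6 Case and 4 of 5 Ctrl mice, with means of 9.73 and 55.9 (exact permutation p = 0.0303, adjusted 0.329). Ccn1, a secreted matrix protein, stood at 53.2 ± 30.2 and 80.5 ± 7.28 (exact permutation p = 0.0498, adjusted 0.392).

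In Dapa against Case an unadjusted p under 0.05 was met by 0 of 8 partners, by 2 higher and 1 lower immediate early genes of 22 and by 0 of 13 kinases and factors, beside 3.77% of all genes. They were Csrnp1 (81.5 ± 5.33 and 64.2 ± 13.1, exact permutation p = 0.0152), Nr4a3 (32.3 ± 16.8 and 58.5 ± 17.6, exact permutation p = 0.0238) and Ccn1 (80.3 ± 9.27 and 53.2 ± 30.2, exact permutation p = 0.0325), each with an adjusted p of 1. In Dapa against Ctrl it was met by 0 of 7 partners, by 1 higher and 3 lower immediate early genes of 22 and by 2 lower kinases and factors of 12, beside 13.8% of all genes. Nr4a3, an orphan nuclear receptor related to Nr4a2, was at 32.3 ± 16.8 against 66.2 ± 5.89, and 6 of 6 Dapa mice were below every Ctrl mouse (exact permutation p = 0.00433, adjusted 0.247). Csrnp1 was at 81.5 against 57.4 ± 18.8 (exact permutation p = 0.0108, adjusted 0.258). Elk1, a partner of the serum response factor, was at 14.0 ± 22.1 against 50.1 ± 14.0 (exact permutation p = 0.0238, adjusted 0.294). The other lower genes were Klf4 (73.2 ± 11.9 against 87.1 ± 4.86, exact permutation p = 0.0325), the kinase gene Map2k7 (67.3 ± 19.8 against 90.1 ± 5.38, exact permutation p = 0.0346) and Nr4a2 (8.86 ± 21.7 against 55.9 ± 33.1, exact permutation p = 0.0411).

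Among the promoters whose percentiles ran most like the mean of the 10 members over the 17 libraries were those of Def6 (Pearson's r = 0.882), Ajm1 (0.859), Csf2ra (0.832) and Slc16a6 (0.825), out of 13165 genes. The points are libraries of unknown depth whose lists were cut to 1 length, and the values are given as a description.

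The AP-1 site was also counted where AP-1 proteins could bind, at summits over 1 kb from any start with the site within 50 bp. The share of such distal summits with a site was 2.89%, 3.06%, 3.23%, 3.04% and 2.71% in Ctrl mice 1 to 5. In Case it ran from 1.91% through a median of 2.97% to 4.37%, and in Dapa from 2.52% through 3.02% to 4.10%. The means ± SD were 2.99% ± 0.195 for the 5 Ctrl mice, 2.99% ± 0.842 for the 6 Case mice and 3.15% ± 0.552 for the 6 Dapa mice. Differences were 0.00738 percentage points for Case against Ctrl (exact permutation p = 0.978), 0.160 for Dapa against Case (exact permutation p = 0.708) and 0.168 for Dapa against Ctrl (exact permutation p = 0.600), each 0.978 after adjustment over the 3 comparisons.

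**Figure D4:**
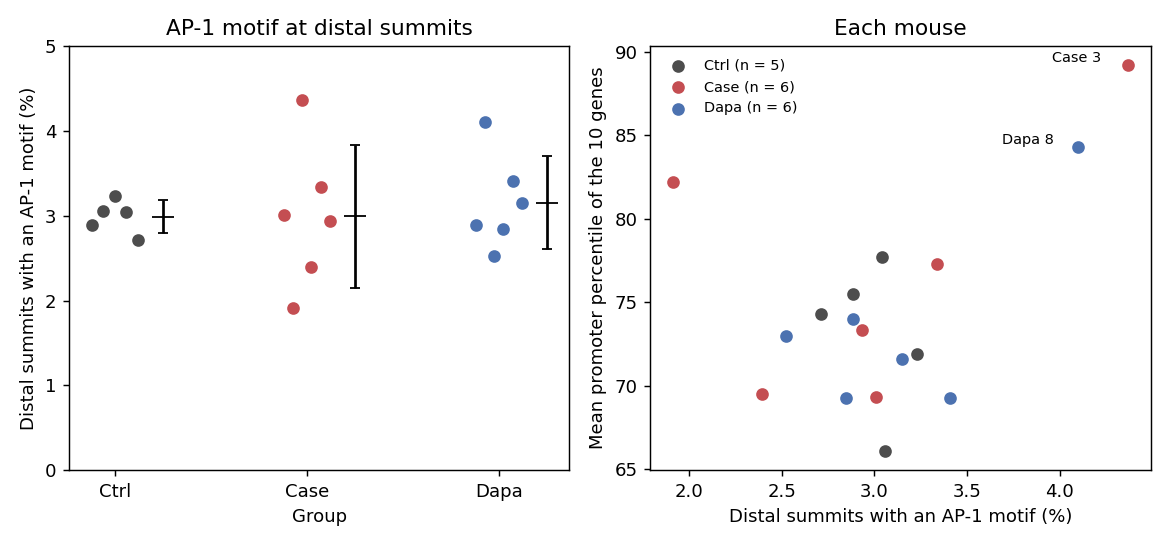
Left, percentage of distal summits with an AP-1 site in each mouse by group, with mean and SD in black; right, the mean promoter percentile of the 10 genes against that percentage, 1 point per mouse, on axes that do not start at 0. Case 3 and Dapa 8 lie at the upper right, with 4.37% and 4.10% of summits and mean percentiles of 89.2 and 84.3.

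Case 3 and Dapa 8 stood apart from the other 15 mice in both measures. Their mean promoter percentiles over the 10 members were 89.2 and 84.3, beside 66.1 to 82.2 in the others, and their AP-1 site shares were 4.37% and 4.10%, beside 1.91% to 3.41%. Their windows held 27 and 23 summits, beside 15 to 24. Their complete lists held 29845 and 47564 summits. Markers of leukocytes moved with them. Promoter summits of leukocyte markers were found in 3 libraries: Cd68 and Csf1r in Case 3, Cd68 in Dapa 8 and Cd3e in Dapa 9. Their summed percentiles over the 8 markers were 102, 77.1 and 12.8, beside 0 in the other 14 mice. Fibroblast markers had summed percentiles of 126 in Case 3 and 43.0 in Dapa 8, beside 0 to 93.8 in the others, and endothelium markers 0 in both. Kidney epithelium markers had summed percentiles over the 14 markers of 246 in Case 3 and 358 in Dapa 8, beside 411 to 651 in the others. By number, 6 of 14 had a promoter summit in Case 3 and 8 in Dapa 8, beside 7 to 10 in the others. Ptprc and Itgam, which define leukocytes and myeloid cells, had no promoter summit in any library. The part of any of these cells in the values was not tested. Without both mice the difference in AP-1 site share was −0.268 for Case against Ctrl and −0.0216 for Dapa against Ctrl, and no member promoter passed an adjusted p under 0.05.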

How the data were processed

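The deposited files list the summits of peaks that the authors called per library with MACS2, after Bowtie2 alignment to mm10 in the ENCODE pipeline with duplicates and blacklisted regions removed. Column 5 is a score on the −log10 scale as deposited, and whether of a p-value or a q-value is not given in the sources used here. Scores were used for ranks within a list, since they depend on depth. Tied scores shared the average rank, and ties at the cut were kept in file order.

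Summits on autosomes, X and Y were assigned to GENCODE vM21 genes (55413 genes). Percentiles and window counts were compared by exact permutation of mice over 462 or 924 relabellings, 2-sided, for every protein-coding gene with a summit in at least 2 of the libraries compared. Regions were compared by Fisher's exact test. Both had Benjamini-Hochberg adjustment over all features tested, and the tests were checked on simulated data. The 10 members are always named, with their regions in all 17 libraries. Of the pathway lists, all genes with an unadjusted p under 0.05 are named, where the plan was the 3 of smallest p per comparison. The 5 most similar promoters by Pearson's r are named, apart from one that is not reported here, and regions of Fos, Atf3, Fosb, Jun, Junb, Ier2 and Klf6 were also described after their values were seen. Members and lists were chosen with earlier results of these data known. The labels name each mouse as a sample of its own. Alternatives were complete lists, the strongest 14851 summits, promoters of 500 bp or 3 kb, a window from 2 kb upstream, extensions of 100 or 500 bp, regions in at least 3 libraries, motifs within 100 bp, distal over 3 kb, paired mice and each mouse left out. Python 3.11.15, numpy 2.4.6, pandas 2.3.3, scipy 1.17.1 and matplotlib 3.10.9 were used.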

Additional observations from a re-analysis of the deposited data

Results flagged for a closer look

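Extreme values were sought in 39 groups of values (13 measures in 3 groups of mice). In 4 of them 1 mouse lay farther from the rest than Dixon's critical value for the group. That value is passed by chance in about 1 in 20 groups of independent normal values. Percentiles are bounded, with 0 for a missing summit, and 1 measure is the mean of the 10 genes. The rate therefore need not hold here. The promoter of Ier2 had a percentile of 0 in Ctrl 2, beside 41.8 to 53.8 in the other Ctrl mice. With complete lists, which were not examined for extreme values, it had 36.7, beside 53.8 to 68.1. The promoter of Klf6 had 96.8 in Ctrl 4, beside 98.6 to 99.2, and 87.7 in Dapa 12, beside 95.1 to 99.2 in the other Dapa mice. The mean percentile of the 10 members was 84.3 in Dapa 8, beside 69.2 to 74.0 in the other Dapa mice. Cd68 had a promoter summit in that library, and its part in the value was not tested.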

How the results depend on the processing

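No gene or region passed an adjusted p under 0.05 under any alternative run, and the smallest adjusted p of a member promoter was 0.268 (exact permutation tests). Of 500 promoter values of the 10 genes under alternatives 478 kept their direction, and 22, in 12 of 30 comparisons, turned it. With complete lists, the difference was −0.306 for Fos and −0.0739 for Ier2 (Case against Ctrl), 5.73 for Ier2 (Dapa against Case), and −0.0796 for Atf3 and −0.716 for Egr1 (Dapa against Ctrl). With promoters of 500 bp, Egr1 stood at −3.57 (Case against Ctrl) and −12.3 (Dapa against Ctrl). With 3 kb, Ier2 stood at −3.20 (Case against Ctrl) and 5.67 (Dapa against Case), and Fosb at 0.623 and Junb at −3.83 (Dapa against Ctrl). The Junb difference was −9.97 with the 14851 strongest summits of each list, in which percentiles are ranked over fewer summits. The Atf3 window stood at −0.4 summits with complete lists (Case against Ctrl) and at 0.1 with 2 kb upstream (Dapa against Ctrl), and the presence difference of the upstream Atf3 region at 0.0333 with complete lists (Dapa against Ctrl). The AP-1 site share differed by −0.0212 with complete lists (Dapa against Case) and −0.0603 with distal over 3 kb (Case against Ctrl). Without Case 3 and Dapa 8, an alternative chosen after seeing the data, it differed by −0.268 (Case against Ctrl) and −0.0216 (Dapa against Ctrl). The cause was not tested.

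With 1 mouse left out in turn, the promoter difference between Dapa and Ctrl ran from −5.73 to 2.72 for Fosb (highest without Dapa 12), −6.43 to 1.54 for Jun (without Dapa 10) and −5.14 to 1.36 for Jund (without Dapa 7). Between Dapa and Case it ran from −0.276 (without Case 1) to 9.91 for Fos, −4.16 to 0.789 (without Dapa 11) for Fosl2, −5.77 to 3.56 (without Dapa 10) for Atf3 and −13.0 to 5.96 (without Dapa 11) for Ier2. Between Case and Ctrl, the Atf3 window ran from −0.0833 (without Ctrl 1) to 0.4 summits and the presence difference of the upstream Atf3 region from −0.167 (without Ctrl 4) to 0.2. The AP-1 site share ran from −0.268 (without Case 3) to 0.223 for Case against Ctrl, −0.0557 (without Case 2) to 0.435 for Dapa against Case and −0.0216 (without Dapa 8) to 0.294 for Dapa against Ctrl. An unadjusted p under 0.05 was reached by several members. In exact permutation tests of Case against Ctrl, Jund stood at 8.61 without Ctrl 1 (p = 0.0143, adjusted 0.459) and 7.81 without Case 5 (p = 0.0476, adjusted 0.392), Fosl2 at 16.4 without Ctrl 5 (p = 0.0286, adjusted 0.434), Klf6 at −0.941 without Ctrl 4 (p = 0.0429, adjusted 0.393) and Ier2 at 24.7 without Case 4 (p = 0.0397, adjusted 0.368). In exact permutation tests of Dapa against Ctrl, Junb stood at −29.3 without Dapa 8 (p = 0.0317, adjusted 0.268) and Fos at 14.0 without Dapa 11 (p = 0.0238, adjusted 0.281). The Atf3 window reached it in Dapa against Case without Case 4 or Dapa 8 and in Dapa against Ctrl without Dapa 8 (−1.33, −1.47 and −1.4 summits, exact permutation p = 0.0476, 0.0260 and 0.0238, each 1 after adjustment). In Fisher's exact test, the upstream Fos region had p = 0.0333 in Dapa against Ctrl without Ctrl 3 (adjusted 0.600) or Ctrl 5 and the upstream Atf3 region p = 0.0476 without Ctrl 4 or Dapa 8 (adjusted 0.452 and 0.363). The upstream Atf3 region in Dapa against Case had p = 0.0152 in Fisher's exact test without Case 4 (adjusted 1) or Dapa 8 (adjusted 0.811).

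The replicate block of same-numbered Ctrl and Case mice gave 0 genes past the threshold, as without it. The 5 pairs share only a number. Correlations of their deviations ran from −0.0362 to 0.0538, 1 Case mouse was closest to its own number, and the smallest p an exact test of 5 pairs allows is 0.0625. Depth is unknown, and a summit missing from an equal-length list may be weak or absent.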
